A study of Homo sapiens with 2 samples.

Results

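The genes described here are 10 antiviral effectors of the interferon response: the IFIT genes IFIT1, IFIT2, IFIT3 and IFIT5, the ubiquitin-like modifier ISG15, the GTPase MX1, and the interferon-inducible genes IFI6, IFI27, IFI44 and IFI44L. They were chosen by earlier results of the same arrays, in which interferon-induced genes had higher signals with HOXA5 short RNA. Their differences between the arrays are therefore given as a description, with no test. Probes were found by RefSeq accession, and 10 probes for 9 of the 10 genes were on the array, among 11994 genes and 17938 probes compared in all. IFI27 matched no probe, since none of its accessions in the gene table used here was on the array. Accessions that this table does not list could not be matched, so an IFI27 probe under an older accession would be missed, and the counts below hold for the 9 matched genes.

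The cells were HCT116, an established line from a human colon cancer. They were stably transfected with a pEB vector, as a mock control (pEB-mock) or with HOXA5 short RNA (pEB-HOXA5 short), a splice form that skips the first exon of HOXA5. The labels give blasticidin selection for 2 weeks for both groups, so transfection and drug are shared. Whether the stable cells were a pool or a single clone is not given in the sources used here. Total RNA of each was measured on 1 Agilent single-color array, so there are 1 mock and 1 HOXA5 short array, no replicates, and no p-values. The number of arrays limits the precision of every value below. In such bulk RNA, a change in the share of cells that express a gene and a change in the RNA of each cell cannot be told apart.

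Interferons are secreted proteins that cells release on sensing viral or misplaced RNA and DNA. Their receptors activate JAK kinases, which act on transcription factors, IRF9 among their partners, that bind the interferon-stimulated response element (ISRE) in target promoters. The effectors act on different steps of infection. IFIT proteins bind foreign RNA and hinder its translation, ISG15 is conjugated to proteins in the way ubiquitin is, and MX1 blocks viral ribonucleoproteins. IFI6, IFI44 and IFI44L are also antiviral or modulate the interferon response.

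The ISRE core was looked for in the promoters, because genes that move together may share such an element. The window ran from 250 bases before to 50 bases after the annotated start in RefSeq (GRCh38.p14), and 9 of the 10 genes matched the table. IFIT2 had no entry, so its promoter was not searched, while IFI27 had one. The core searched was GAAA, any 2 bases and GAAA again, on either strand. It was found in 9 of these 9 genes and in 3.57% of 35116 promoters. These are unlike units, since a gene counted if any of its annotated starts had a match, while the share is of single promoters. Counted by gene among those compared, 353 held the core and 9120 did not. A longer form, the same core followed directly by CT, was found in 8 of the 9 and in 0.273% of promoters. IFI44L lacked it, and MX1 held it only at another of its annotated starts, in a window not shown. A match is only a match of letters. The stretches below, all upstream of the start, are shown for the genes measured on the array, except IFIT2. Each match of the core is in capitals (on the opposite strand it reads TTTC, 2 bases, TTTC). For genes with several annotated starts, the window with the most matches is shown. They lie at chr10:89392495-89392541 (plus strand) for IFIT1, chr10:89327829-89327896 (plus) for IFIT3, chr10:89414511-89414567 (plus) for IFIT5, chr1:1013372-1013411 (plus) for ISG15, chr21:41431842-41431875 (plus) for MX1, chr1:27672264-27672360 (minus) for IFI6, chr1:78649759-78649788 (plus) for IFI44 and chr1:78620272-78620396 (plus) for IFI44L.
IFIT1: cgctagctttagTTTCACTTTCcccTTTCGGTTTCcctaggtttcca
IFIT3: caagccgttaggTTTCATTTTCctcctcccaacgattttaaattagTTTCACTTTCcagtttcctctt
IFIT5: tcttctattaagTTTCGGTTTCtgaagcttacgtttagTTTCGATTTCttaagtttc
ISG15: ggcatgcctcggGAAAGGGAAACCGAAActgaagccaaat
MX1: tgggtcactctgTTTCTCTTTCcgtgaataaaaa
IFI6: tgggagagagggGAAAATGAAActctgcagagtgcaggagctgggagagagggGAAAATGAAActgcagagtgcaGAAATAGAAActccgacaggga
IFI44: gggcacactgagTTTCAGTTTCctttctct
IFI44L: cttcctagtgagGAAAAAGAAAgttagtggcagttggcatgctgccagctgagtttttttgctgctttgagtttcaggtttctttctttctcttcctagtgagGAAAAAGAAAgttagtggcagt

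IFI6 carried 3 matches in this stretch. IFIT1, IFIT3, IFIT5, ISG15 and IFI44L carried 2 each, those of ISG15 overlapping, and MX1 and IFI44 carried 1 each. IFIT5, whose signal was not higher with HOXA5 short RNA, held a further match across its start, for 3 in its window.

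The arrays were first checked against their labels. HOXA5, which shares its last exon with the vector insert, had a processed signal of 39.4 (error 4.32) with pEB-mock and 346 (error 34.6) with pEB-HOXA5 short, so it differed by 2.83 on the log2 scale in the direction of the labels (1.91 with normexp, another background correction). Of 9 colon epithelial markers, 7 were well above background on both arrays, from CDX2 (log2 difference -0.10) to CDX1 (0.28), while KRT20 and VIL1 were not detected on either. Of 11 leukocyte, fibroblast and endothelial markers with a probe, CD68 and COL1A1 were detected on both arrays and CD14 on the HOXA5 short array only. PTPRC, PECAM1 and COL3A1 were not detected on either. Of 50599 probes, 36.4% were well above background with pEB-mock and 37.5% with pEB-HOXA5 short. The arrays were set to a common scale by their 75th percentile signal, 35.7 and 44.0, so a difference of 0 means that a probe moved as this percentile did.

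All 10 member probes were well above background on both arrays. Before scaling, each of them was brighter on the HOXA5 short array, as was the 75th percentile of the array (44.0 against 35.7). After scaling, 8 of the 9 genes had a higher signal with HOXA5 short RNA and IFIT5 a lower one. Of all genes compared, 45.5% were higher. The members ran from -0.14 to 0.76 on the log2 scale, with a median of 0.32, while the median of all genes was -0.02, with an SD of 0.29. At least 25% higher were 4 of the 9, IFIT2, IFIT3, IFI6 and IFI44L, where 8.65% of all genes were. IFI44 lay just under this limit. At least 2-fold higher were 0 of the 9, and 0.642% of all genes. Because this contrast chose the members, nothing is read from these counts.

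**Figure D1:**
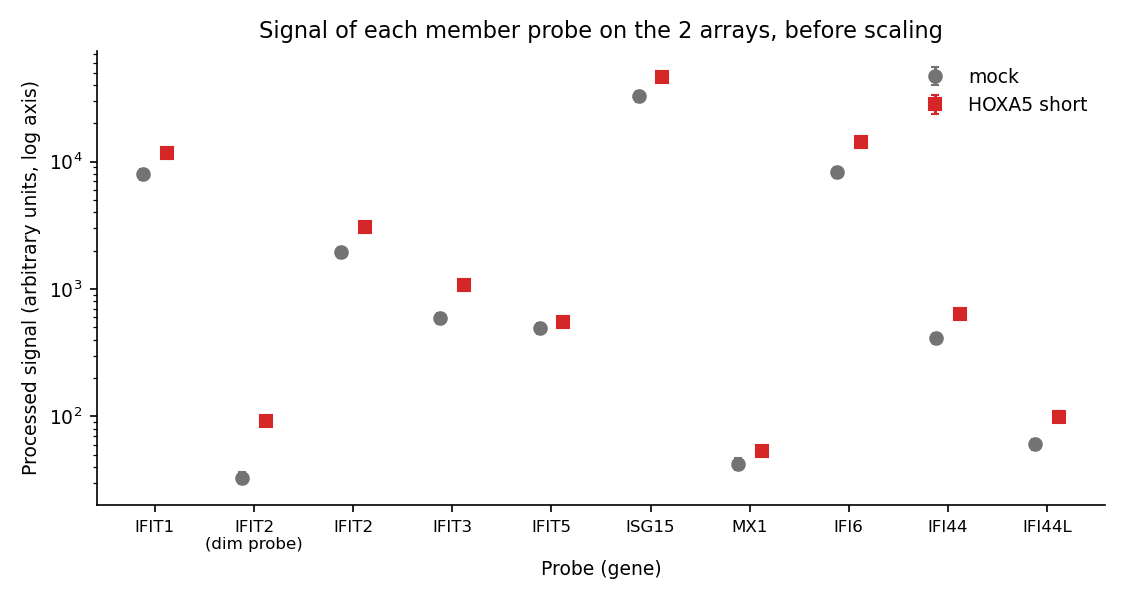
Processed signal of each member probe on the mock array (circles) and the HOXA5 short array (squares), on a log axis, before scaling. Bars are the error given by the scanner software, mostly smaller than the symbols. The signals ran from 32.9 for the dim IFIT2 probe to 46444 for ISG15. Each probe was brighter on the HOXA5 short array, as was the 75th percentile of that array.

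The error of a single spot was judged in 2 ways. The scanner software gave errors that rise with the signal, which amount to 0.20 to 0.22 on the log2 difference of the member probes. Probes printed in several spots gave the spread that was actually seen. Between the arrays, the SD of such differences, as a root mean square over probes, was 0.30 for 120 probes with mean signals below 50. It was 0.26 for 207 probes from 50 to 200, 0.24 for 174 probes from 200 to 1000 and 0.23 for 92 brighter probes. The median SD of a probe was lower, at 0.27, 0.18, 0.14 and 0.10 in the same order. Flagged spots were kept in these SDs, though not in the averages of probes. The single-spot SD used below is the root mean square. Of the 10 member probes, 7 had a positive difference larger than this SD, and 3 had one of more than double the SD. The like share over all compared probes is not given here. Because this contrast chose the members, nothing is read from these counts either. These SDs hold the error of the array and no spread between cultures.

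Among the IFIT genes, IFIT2 had the highest mean over its probes, though its brighter probe alone was below IFIT3. IFIT2 binds RNA together with its relatives and promotes cell death when abundant. Its brighter probe gave 1940 (error 194) with pEB-mock and 3054 (error 305) with pEB-HOXA5 short. Scaled, this was a log2 difference of 0.35 (1.28-fold), 1.55 times the single-spot SD. Its dimmer probe, designed for the same accession (NM_001547), gave 32.9 (error 3.69) and 91.9 (error 9.36), a difference of 1.18 (2.26-fold) and 4.56 times the SD. The probes shared the direction and disagreed in size. The mean of the pair was 0.76 (1.70-fold), and 98.5% of all genes had a lower value.

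IFIT3, which bridges and stabilizes IFIT1 in the RNA-binding complex, gave 586 (error 58.7) with pEB-mock and 1067 (error 107) with pEB-HOXA5 short. The log2 difference was 0.56 (1.47-fold), 2.37 times the SD, and 97.0% of genes were lower. IFIT1, which recognizes viral RNA lacking the methylated cap of host mRNA, gave 7961 (error 796) and 11735 (error 1173). Its difference of 0.26 (1.19-fold) was 1.13 times the SD, with 88.2% of genes lower.

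IFIT5, which also binds foreign RNA but is less dependent on its partners, stood apart from the other IFIT genes. It gave 493 (error 49.4) with pEB-mock and 554 (error 55.4) with pEB-HOXA5 short, a rise of 1.12-fold before scaling that was below that of the array as a whole. The scaled log2 difference was -0.14, within the single-spot SD of 0.24, and 27.2% of genes were lower. The 31 measured spots around it had a mean difference of -0.32, the lowest surrounding mean of any member probe, and with that mean subtracted IFIT5 came to 0.18. The part of position in this value was not tested.

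ISG15 had 32783 (error 3278) with pEB-mock and 46444 (error 4644) with pEB-HOXA5 short. The spot was not saturated on either array. The log2 difference was 0.20 (1.15-fold), 0.877 times the SD, and 83.9% of genes were lower. MX1 was dim, with 42.1 (error 4.56) and 53.8 (error 5.71). Its difference of 0.05 was within the SD of 0.30, and 64.8% of genes were lower, so no difference in MX1 was detectable on these arrays.

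IFI6, a small membrane protein that limits the replication of flaviviruses, gave 8257 (error 826) and 14304 (error 1430). The log2 difference was 0.49 (1.40-fold), 2.16 times the SD, with 95.9% of genes lower. IFI44L, a regulator of the interferon response, gave 60.5 (error 6.25) and 99.5 (error 10.1), a difference of 0.41 (1.33-fold) and 1.60 times the SD. Its neighbor and paralog IFI44 gave 411 (error 41.1) and 634 (error 63.4), a difference of 0.32 and 1.36 times the SD. The share of genes with a lower value was 94.3% for IFI44L and 91.3% for IFI44. In the order of their differences, IFIT2, IFIT3, IFI6, IFI44L, IFI44, IFIT1, ISG15, MX1 and IFIT5, adjacent genes lay within the single-spot SD of each other.

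**Figure D2:**
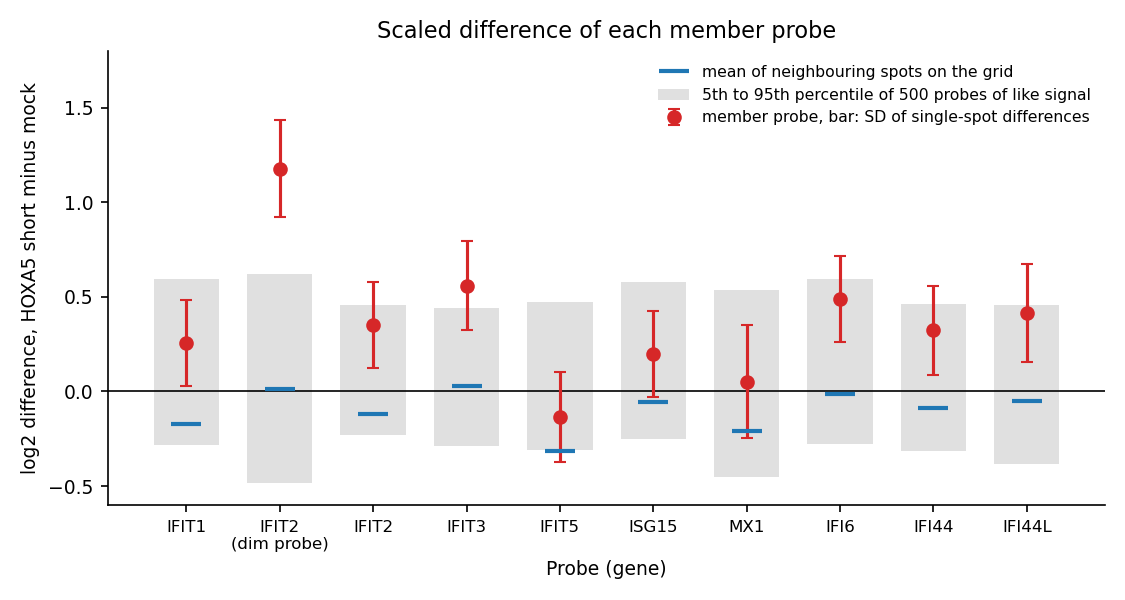
Scaled log2 difference (HOXA5 short minus mock) of each member probe (circles), with the SD of single-spot differences at that brightness as bars. Gray boxes span the 5th to 95th percentile of the 500 compared probes closest in signal, and horizontal marks give the mean difference of the surrounding spots. The dim IFIT2 probe and IFIT3 lie above their boxes, and IFIT5 and MX1 lie near 0 with surrounding means of -0.32 and -0.21.

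Signal strength and position were set beside these values. For each member probe, the 500 compared probes closest in mean signal had a median difference between -0.03 and 0.01. The dim IFIT2 probe (1.18) and IFIT3 (0.56) were above the 95th percentile of these probes, which was 0.62 and 0.44. The other member probes were within the central 90%. On the grid, 4 of the 319 measured spots around the member probes differed 2-fold or more, and no member probe lay in a zone where at least 10% of the surrounding spots did. After scaling, the 7 detected RNA spike-ins of the labeling kit had a median difference of -0.47. They ran from -0.66 to -0.04, so this median is itself uncertain. Scaling to the spike-in median instead adds 0.47 to every gene, and then IFIT5 was also higher (0.33).

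The ISG15 pathway was followed through its enzymes. UBE2L6, the enzyme that passes ISG15 on, had a log2 difference of 0.47, with signals of 426 (error 42.6) with pEB-mock and 728 (error 72.9) with pEB-HOXA5 short. HERC5, the main ligase for ISG15, had 0.37, with signals of 298 (error 29.8) and 475 (error 47.5). USP18, the protease that removes ISG15 and dampens receptor signaling, had 0.59, with 472 (error 47.3) and 876 (error 87.6). The values of these 3 genes were all above that of ISG15 itself (0.20), though HERC5 and ISG15 lay within the single-spot SD (0.24) of each other. This order was not tested. TRIM25, a ubiquitin ligase that also conjugates ISG15, had 0.58. ARIH1 (-0.14) and HERC6 (-0.10), ligases also linked to ISG15, lay within the single-spot SD. HERC6 rested on a dim probe, at 14.3 (error 2.14) with pEB-mock and 16.4 (error 2.94) with pEB-HOXA5 short. Another HERC6 probe was not detected on either array. UBA7, which activates ISG15, was well above background on the HOXA5 short array only, at 8.80 (error 1.91) against 4.05 (error 1.63), too dim for a fold. Of the 6 genes compared, 4 were at least 25% higher (8.65% of all genes), with a median of 0.42. The gene lists here and below were chosen with earlier results of these arrays known, so nothing is read from their counts.

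Of 9 relatives of the members compared, 8 were higher and 4 at least 25% higher (45.5% and 8.65% of all genes), with a median of 0.31. IFITM3, IFI27L1 and IFI27L2, counted as higher, lay within the single-spot SD. MX2, the nuclear-envelope relative of MX1 and its chromosomal neighbor, had a difference of 0.62 where MX1 had 0.05. Both were dim, and MX2 gave 12.9 (error 2.26) and 24.4 (error 3.24). The IFITM proteins block entry of viruses at membranes. IFITM1 had 0.53 over 2 probes (0.44 and 0.63), IFITM2 had 0.31 and IFITM3 had 0.13. ISG20, an RNA exonuclease, had 0.43 and IFI35 had 0.38. The relatives of IFI27 hardly differed, with 0.07 for IFI27L1 and 0.03 for IFI27L2, as did the lysosomal reductase IFI30 (-0.04). IFIT1B and IFI16 were not detected on either array.

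Of 29 other interferon-stimulated genes compared, 25 were higher and 14 at least 25% higher (45.5% and 8.65% of all genes), with a median of 0.31. They ran from EIF2AK2 (-0.14), the kinase PKR that halts translation on sensing double-stranded RNA, to SP110 (1.42), a nuclear body protein. The SP110 spot lay in an uneven area, where 5 of 30 surrounding spots differed 2-fold. Without uneven zones the median of this list was 0.21, as it was with only the brightest probe of each gene. Several of the genes counted as higher lay within the single-spot SD. All 7 OAS genes and RNA sensors were higher and 6 at least 25% higher, set against the same shares of all genes. They ran from DHX58 (0.19), within the single-spot SD of 0.26, to OAS2 (0.88), with a median of 0.55. Only 1 of 3 OAS2 probes was compared, at 19.5 (error 2.73) with pEB-mock and 44.5 (error 4.89) with pEB-HOXA5 short. Its other probes were not detected on either array. Of 10 receptor and signaling genes, 7 were higher and 4 at least 25% higher (again 45.5% and 8.65% of all genes), with a median of 0.19. The transcription factor IRF1 was highest at 0.45 and the receptor subunit IFNAR1 lowest at -0.37. As with the members, nothing is read from the counts of these lists.

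**Figure D3:**
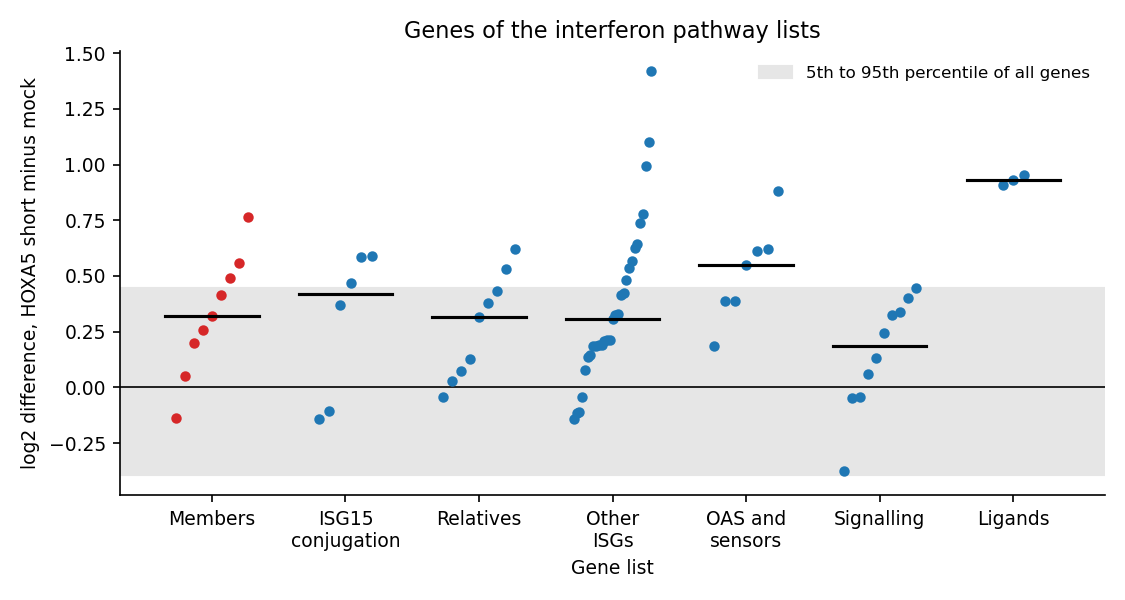
Scaled log2 difference (HOXA5 short minus mock) of each compared gene in the interferon pathway lists, 1 point a gene, with horizontal lines at the list medians. The gray band spans the 5th to 95th percentile of all 11994 genes, from -0.39 to 0.45. The 9 members have a median of 0.32, the OAS and sensor genes 0.55 and the 3 type III interferon genes 0.93.

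The interferon genes themselves gave a further readout. Of 17 ligand genes with a probe, 13 were not detected on either array, and these included 9 IFNA genes and IFNG. The type III interferons, IFNL1, IFNL2 and IFNL3, were detected on both arrays. IFNL1 gave 104 (error 10.6) with pEB-mock and 248 (error 24.9) with pEB-HOXA5 short, a log2 difference of 0.95 (1.93-fold). IFNL2 gave 216 (error 21.7) and 501 (error 50.1), a difference of 0.91 (1.88-fold). IFNL3 gave 36.6 (error 4.10) and 86.1 (error 8.83), a difference of 0.93 (1.91-fold). These differences were 3.68, 3.85 and 3.60 times the single-spot SD. Of the spots measured around them, 0 of 24, 0 of 45 and 0 of 31 differed 2-fold. IFNL2 and IFNL3 are near-identical genes, so their probes may read the same transcripts. Type III interferons signal through an epithelial receptor to much the same target genes. IFNB1 was well above background on the HOXA5 short array only, at 11.2 (error 2.02) against 5.47 (error 1.64). The bound from these signals was 1.17-fold (log2 0.23). It takes no account of their errors and is within the single-spot SD of 0.30, so no least difference is read from it. Whether secreted interferon differed between the cultures was not measured.

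The chromosomal neighbors of the members were also described. Among the compared genes, IFIT2, IFIT3, IFIT1 and IFIT5 follow each other on chromosome 10 in this order. Their differences were 0.76, 0.56, 0.26 and -0.14. They fell along this order only with the dim IFIT2 probe included, since the brighter IFIT2 probe alone (0.35) was below IFIT3. IFI44L and IFI44 are adjacent on chromosome 1. The 5 nearest compared genes on each side of each locus were taken, 50 in all. Of these, 25 were higher and 11 at least 25% higher (45.5% and 8.65% of all genes), with a median of -0.01. Around IFI44L and IFI44, 2 of 10 genes were higher and 0 were at least 25% higher. Around the IFIT genes, 6 of 10 were higher and 4 at least 25% higher, among them LIPA (0.46), SLC16A12 (0.62) and ACTA2 (0.51), while FAS (-0.07), PANK1 (-0.03) and KIF20B (-0.48) were not. Around IFI6, 6 of 10 were higher and 3 at least 25% higher, up to CD164L2 (1.85), and around ISG15, 5 of 10 were higher and 1 at least 25% higher. Around MX1, 6 of 10 were higher and 3 at least 25% higher, SH3BGR (0.81) and MX2 (0.62) among them.

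**Figure D4:**
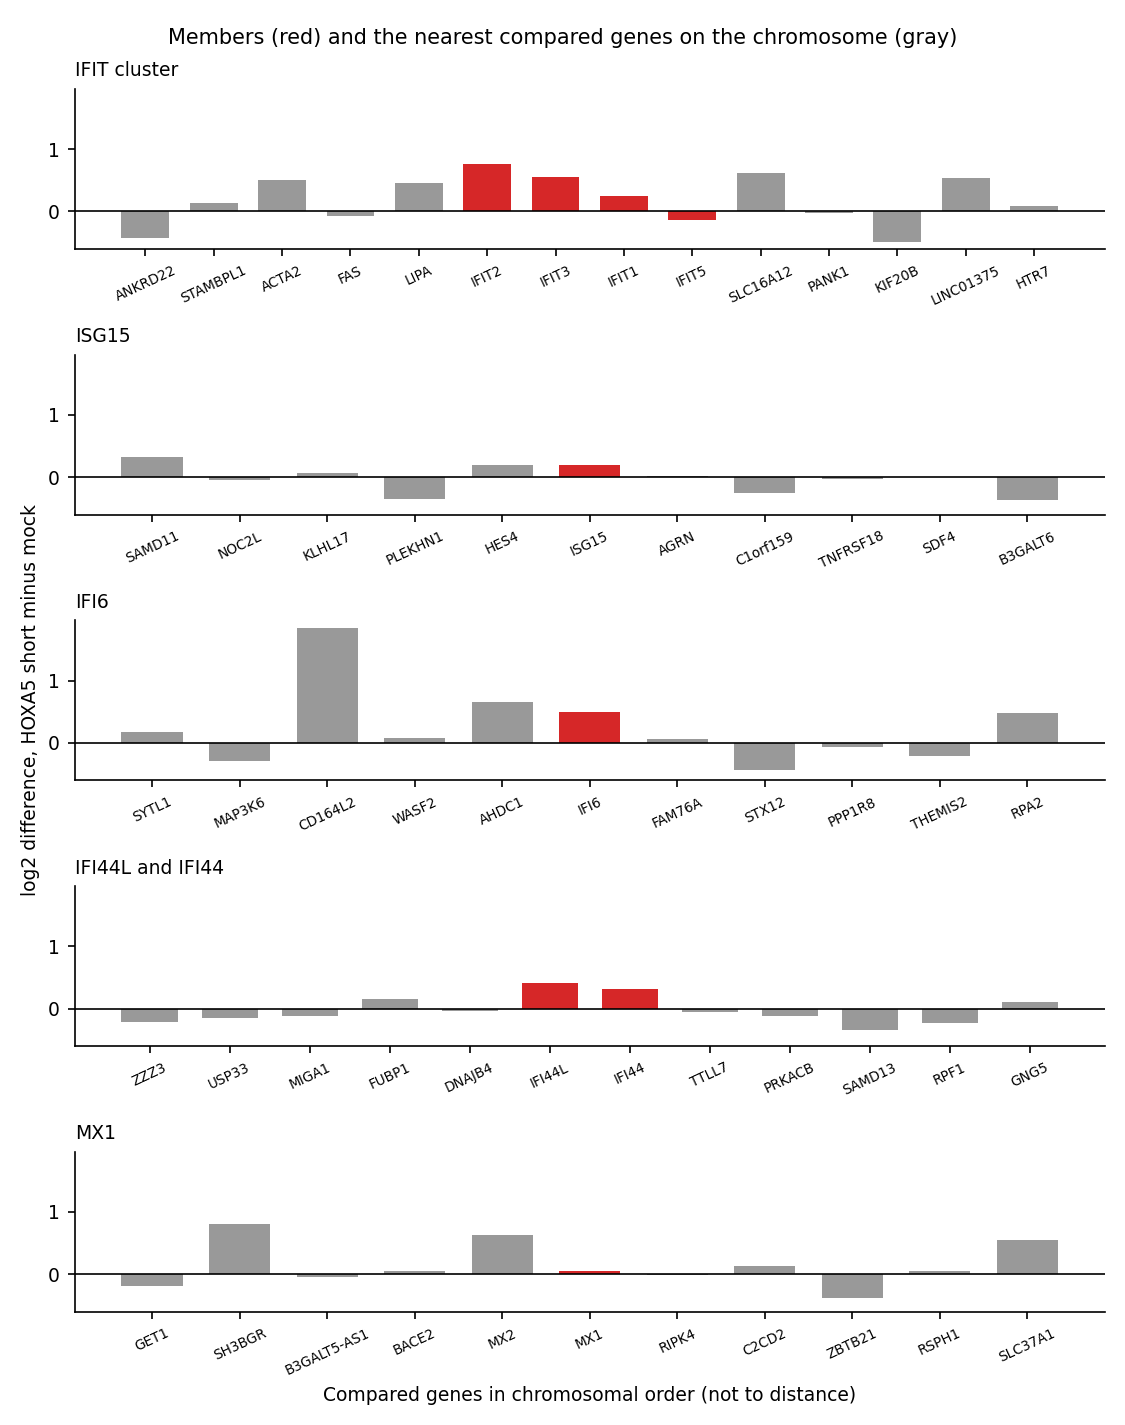
Scaled log2 difference (HOXA5 short minus mock) of the members (red) and the 5 nearest compared genes on each side (gray), in chromosomal order, with distances not drawn. IFI44L (0.41) and IFI44 (0.32) are higher than all 10 of their neighbors, while genes around the IFIT cluster run from -0.48 to 0.62.

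The member values were recomputed under 12 other ways of processing. IFIT3 ran from 0.53 to 1.03 and IFI6 from 0.45 to 0.96, the highest values coming from spike-in scaling. MX1 ran from -0.037, with another background correction, to 0.52, and IFIT5 from -0.15 to 0.33.

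**Figure D5:**
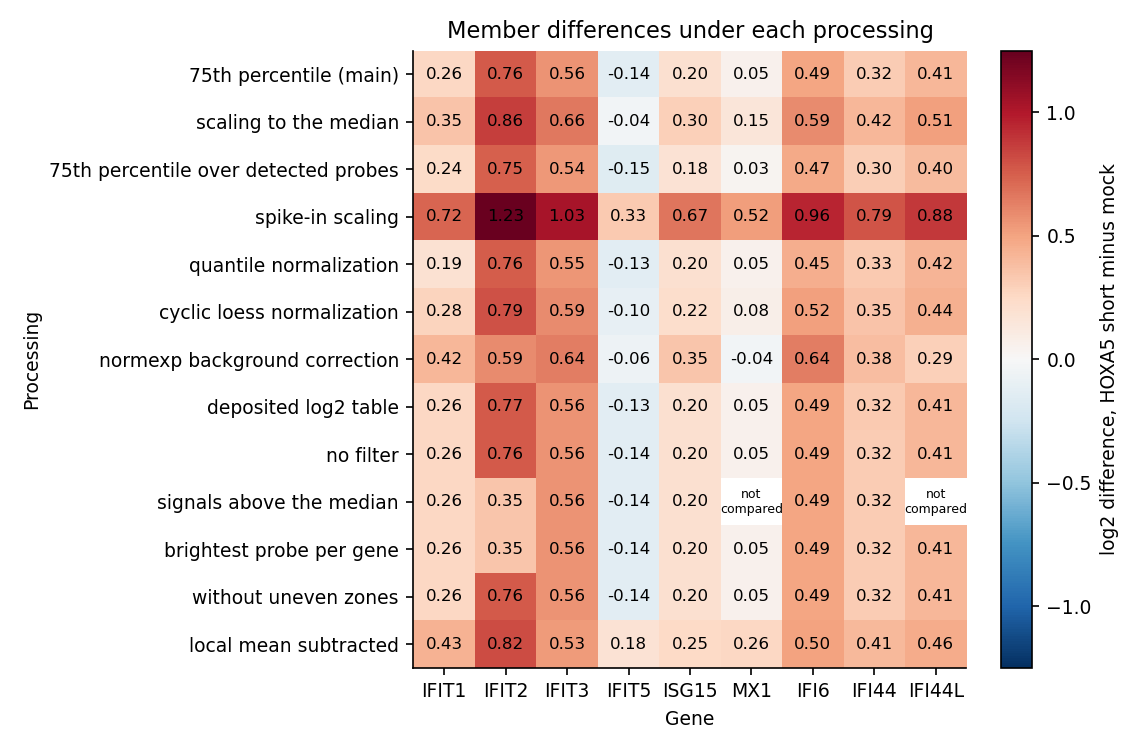
Log2 difference (HOXA5 short minus mock) of each member gene (columns) under the main processing and 12 alternatives (rows), with color for size and direction. IFIT1, IFIT2, IFIT3, ISG15, IFI6, IFI44 and IFI44L are above 0 wherever they were compared, while IFIT5 and MX1 change sign.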

How the data were processed

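Per the file headers, spots were quantified with Agilent Feature Extraction 11.5.1.1, and the deposited processed signal is a linear intensity that this software had already corrected for background. A second file from the authors holds log2 values made with GeneSpring, where each probe is centered on its own mean. The difference between its columns was within 0.00114 of the values used here for every member probe.

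Signals were converted to log2, unflagged spots of a probe were averaged, and the 75th percentile of the array over non-control probes was subtracted. Only probes flagged well above background on each of the arrays were compared, and a gene took the mean of its compared probes. Accessions were named through RefSeq gene records (GRCh38.p14), which named 30004 of 50599 probes (59.3%). The arrays are annotated on hg19, so coordinates are printed for RefSeq promoter stretches (GRCh38.p14) and for no probe or gene.

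With 1 array in each group no test was possible. The spread came from 593 probes printed in 5 or more spots and detected on each array. Flagged spots were kept in it, and the SDs were pooled as a root mean square over probes. A spot was in an uneven zone when at least 10% of at least 10 measured spots within 4 rows and columns differed 2-fold. A probe detected on 1 array was given a bound, its value against the higher of the dim probe's own value and the lowest unflagged signal well above background.

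Quantile normalization, cyclic loess and normexp (offset 50, on median foreground and background signals) used limma 3.58.1 in R 4.3.3. Other steps used Python 3.11.15. The code was tested on simulated data. The members, the gene lists and the thresholds were chosen with earlier results of these data known. Groups follow the genotype in the labels, whose protocol text describes the HOXA5 short vector for both samples. Named are all members, the ISG15 enzymes and relatives, the extremes of the other lists, HOXA5 and cell type markers. The type III interferon genes and IFNB1, and the chromosomal neighbors were named after their values were seen.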

Additional observations from a re-analysis of the deposited data

Results flagged for a closer look

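A signal appeared among probes that the comparison of genes leaves out, those with an mRNA accession that the gene table does not list. There were 554 such probes, of which 170 were compared, and 7 of these (4.12%) were at least 2-fold higher on the HOXA5 short array, 5 of them outside uneven zones. Of all genes compared, 0.642% were, but a gene takes the mean of its probes, which is not a like measure. Among all 17938 compared probes, 195 had a log2 difference of at least 0.992, just under 2-fold. The probes of the 7 that lay in uneven zones shared 1 accession. The largest difference outside those zones, and of the 7, was that of a probe labelled NM_005532. It gave 319 (error 32.0) with pEB-mock and 1218 (error 122) with pEB-HOXA5 short, a log2 difference of 1.63 (3.09-fold), which is larger than that of any matched member. Of 30 measured spots around it, 1 differed 2-fold. No table used here lists the accession, so its gene is not named. Whether it is an older accession of IFI27, the listed gene with no matched probe, could not be settled. If it is, 1 of the 10 listed genes, and not 0, was at least 2-fold higher.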

How the results depend on the processing

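No paired analysis was possible because each group has 1 array and no result comes from a test. Of 106 member values under 12 alternatives, 94 moved by less than the single-spot SD of 0.26 and 3 changed sign: IFIT5 with spike-in scaling (0.33) and with the local mean subtracted (0.18), and MX1 with normexp (-0.037). MX1 and IFI44L could not be compared among signals above the median. With the brightest probe, or signals above the median, IFIT2 fell to 0.35, since the dim probe is left out, and IFIT3 (0.56) then differed more. HOXA5 was 1.91 with normexp and 3.30 with spike-in scaling. Spike-in scaling added 0.47 to every gene by construction. It gave 9 members at least 25% higher and 2 at least 2-fold higher, where 74.3% and 3.34% of all genes were, a member median of 0.79, and list medians of 0.89 (ISG15 conjugation), 0.78 (relatives), 0.77 (other interferon-stimulated genes), 1.02 (OAS and RNA sensors), 0.65 (signaling) and 1.40 (ligands). The member median less that of all genes stayed at 0.34 there. A threshold of 1.5-fold called 1 member, IFIT2 (1.70-fold), whose brighter probe alone was 1.28-fold. The share of all genes past 1.5-fold is not given here, so nothing is read from this count. Scaling to the median raised all genes by 0.10, and IFIT5 stayed below 0 (-0.04). Without a filter, the ligand median was -0.15, since undetected genes enter it. Of the genes named, UBA7 and IFNB1 were too dim with pEB-mock for more than a bound.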

Other observations

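Genes were also described by their promoters. Of the compared genes in the promoter table, 37 held the longer ISRE form (GAAA, any 2 bases, GAAACT). Their median log2 difference was 0.15, 67.6% were higher and 35.1% were at least 25% higher. Of the 9436 compared genes without it, 45.5% were higher and 8.02% at least 25% higher, with a median of -0.02. The 37 include members, which were chosen for higher signals. With the members and all listed interferon genes left out, 17 genes with this form remained, and their median was -0.02, with 17.6% of them at least 25% higher. The shorter core (GAAA, any 2 bases, GAAA) was held by 353 compared genes, with a median of -0.002 and 12.7% at least 25% higher. Outside the listed genes the share was 8.78% of 319. These are counts of letters in a fixed window, and no test was made of them.

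The core was present in 3.57% of all promoters, counted singly, while the lists are counted by gene. Among the other lists it was present in 18 of 28 other interferon-stimulated genes with a promoter entry (64.3%), in 2 of 4 OAS genes and sensors, in 5 of 18 ligand genes, in 3 of 9 relatives, in 1 of 5 ISG15 enzymes and in 0 of 6 signaling genes.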
